A study of Mus musculus with 3 samples.

Results

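Lipid-associated macrophages are usually told apart by a small set of genes, of which 10 are described here: Gpnmb, Trem2, Cd9, Cd63, Mmp12, Fabp5, Spp1, Lgals3, Lpl and Itgax. They were taken as a list of names, chosen with earlier results of these data known. They are 10 of the 23860 genes listed in at least 1 of the 2 count tables. Their unique molecular identifiers (UMIs, single counted RNA molecules) were read in Kupffer cells (KCs), other macrophages, monocytes, dendritic cells (DCs) and non-myeloid liver cells. Gpnmb, Cd9 and Itgax also belong to the genes by which the study separates monocyte-derived macrophages from KCs, so all 10 genes were kept out of the markers and out of the genes used for clustering.

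Liver non-parenchymal cells of mice were captured with the BD Rhapsody system and sequenced as 1 library per diet. The NCD library is taken to be from wild-type C57BL/6J mice on a normal chow diet for 16 weeks, by elimination, since its title reads MCD and its header reads APAP0h. The other library, called the HFHC pool, holds wild-type and Chi3l1-/- mice (a constitutive knockout on the C57BL/6J background) on a high-fat, high-cholesterol diet for 16 weeks, with no genotype known for any cell here. The sources used here give no age for these mice and no number of mice in a library. Diet, genotype mix, capture and library cannot be told apart, so no p-value is given, and 95% intervals cover counting error only. The targeted gene, Chil1, had 17 UMIs in KCs of the NCD library against 0 in KCs of the pool, which is too few to check genotypes in these cells.

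Macrophages that take up lipid from dying cells or lipoproteins hydrolyse it in lysosomes, store or export it, and turn on a recurrent group of genes. Trem2 is a surface receptor that binds lipids and signals through the adaptor Tyrobp, and in obese fat tissue and fatty liver it marks macrophages that gather where fat-laden cells die. Gpnmb and the tetraspanin Cd63 are membrane proteins of lysosomes and related organelles, Lpl and Fabp5 release and carry fatty acids, and Spp1, Mmp12 and Lgals3 are secreted proteins of activated macrophages.

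There were 30734 cells with 53720863 UMIs in the NCD library, and 21601 cells with 71981673 UMIs in the pool, of which 23346 and 19625 had 200 to 4000 genes and at most 25% mitochondrial UMIs. The libraries shared 756 cell indexes, 2.46% of all indexes in the NCD library against 3.50% in the pool, and the results without these cells are given under the processing below. KCs numbered 2718 in the NCD library against 383 in the pool, C1q macrophages 93 and 106, monocytes 295 and 306, and DCs 1209 and 623. A further 36 and 596 KCs had over 4000 genes and are described apart, so most KCs of the pool lie above the limit and most KCs of the NCD library below it. KCs of the pool were also the deeper, with a median of 10091 UMIs per cell against 4507. These names stand for clusters that are KC-like, macrophage-like and so on by marker genes. In KCs the defining marker Clec4f stood at 6134 CPM (counts per 1e6, the gene's share of all UMIs summed over the cells) in the NCD library against 4648 CPM in the pool. In C1q macrophages, a cluster led by Ms4a7, Clec4f was lower, at 664 and 142 CPM, and Cx3cr1 was at 1155 and 795 CPM. A cluster led by Ly6i, with 154 and 295 cells, was high in Ccr2 and met no name. Genes that liver dissociation induces were higher in the pool in every class compared, with medians of their log2 ratios from 0.83 to 2.08, and the part of this in the ratios below was not tested.

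The promoters of 8 of the 10 genes (all but Fabp5 and Lpl) were read from RefSeq on GRCm38.p6, each from 250 bases before to 50 after a start site, with 10 start sites in all. They were searched on both strands for TGANTCA (the AP-1 element), CACGTG (the E-box), TCATGTG (the M-box of the MITF and TFE family), GAGGAAG (PU.1) and TTGCNNAA (C/EBP), and no match overlapped another. TGANTCA was found at Gpnmb, Trem2, Mmp12 and Itgax, and lies in 7.81% of 32851 mouse promoters. GAGGAAG was found at Cd63, Mmp12, Spp1 and Trem2 (13.6% of promoters), TTGCNNAA at Mmp12, Spp1 and Trem2 (10.8%), TCATGTG at Mmp12 (3.77%) and CACGTG at no member (7.15%). The 4 promoters with TGANTCA are shown as examples of what a match looks like. These genes were at least 2-fold higher in KCs of the pool, but so were Cd63 and Cd9, whose promoters hold no TGANTCA. Capitals mark every match of the 5 motifs, the letters are those of the plus strand, and a match is a run of letters, not a shown binding site.
Gpnmb, chr6:49036268-49036567: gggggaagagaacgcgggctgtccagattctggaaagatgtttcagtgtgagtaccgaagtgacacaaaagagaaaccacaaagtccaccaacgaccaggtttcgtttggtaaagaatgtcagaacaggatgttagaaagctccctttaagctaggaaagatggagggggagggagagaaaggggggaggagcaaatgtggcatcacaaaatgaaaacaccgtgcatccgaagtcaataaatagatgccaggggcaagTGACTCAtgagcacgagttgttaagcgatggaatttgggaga
Trem2, chr17:48346151-48346450: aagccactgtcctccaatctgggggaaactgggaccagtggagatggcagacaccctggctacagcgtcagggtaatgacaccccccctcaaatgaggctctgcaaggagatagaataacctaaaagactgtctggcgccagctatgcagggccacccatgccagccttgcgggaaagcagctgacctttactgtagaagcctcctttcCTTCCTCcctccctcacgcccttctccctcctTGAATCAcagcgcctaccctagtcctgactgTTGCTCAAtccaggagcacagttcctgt
Mmp12, chr9:7347124-7347423: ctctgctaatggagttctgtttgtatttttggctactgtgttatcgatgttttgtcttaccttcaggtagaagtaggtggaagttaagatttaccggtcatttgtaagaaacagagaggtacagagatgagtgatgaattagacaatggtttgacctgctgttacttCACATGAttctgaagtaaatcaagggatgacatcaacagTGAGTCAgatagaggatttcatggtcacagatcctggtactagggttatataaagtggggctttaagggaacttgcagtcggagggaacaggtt
Itgax, chr7:128129300-128129599: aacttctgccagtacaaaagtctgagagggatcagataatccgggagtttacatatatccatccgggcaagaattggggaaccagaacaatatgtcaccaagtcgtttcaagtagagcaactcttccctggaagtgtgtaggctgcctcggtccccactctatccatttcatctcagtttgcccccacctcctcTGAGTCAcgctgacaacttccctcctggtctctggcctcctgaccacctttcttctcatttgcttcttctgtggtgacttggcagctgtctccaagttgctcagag

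In KCs, 7 of the 10 genes were at least 2-fold higher in the HFHC pool than in the NCD library, in the order Gpnmb, Mmp12, Cd63, Cd9, Itgax, Fabp5 and Trem2. Lgals3 and Lpl, both already abundant in KCs on chow, differed by less, and Spp1 was next to absent. A ratio was computed where the 2 libraries together gave 100 UMIs or more of a gene, which 9 of the 10 reached, and 3.59% of the 8881 genes so measured were at least 2-fold higher in the pool. Only Trem2, Lgals3, Lpl and Itgax had 100 UMIs in the NCD library alone, Gpnmb, Cd9, Cd63 and Mmp12 passed through the pool, where they are high, and Fabp5 through both, so their number is no support for a shift of the list.

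Among the membrane proteins, Gpnmb (chr6:49036518-49058182) had 9 UMIs in 5 of 2718 KCs of the NCD library against 338 UMIs in 65 of 383 KCs of the pool. This is 0.669 and 96.2 CPM, a log2 ratio of 7.02 (95% interval 6.23 to 8.31), the highest of all 8881 genes. Cd63 (chr10:128896231-128912822) stood at 2.53 CPM in the NCD library against 66.3 CPM in the pool, a log2 ratio of 4.68. The related tetraspanin Cd9 (chr6:125460266-125494760), a partner of integrins at the cell surface, stood at 5.28 and 75.1 CPM, a log2 ratio of 3.82. For these genes, as for Mmp12 below, KCs of the NCD library gave almost no UMIs and KCs of the pool a clear signal. Cd63, like Fabp5, has processed copies elsewhere in the genome, so some of its reads may have been lost or shared, and both levels are uncertain to that degree.

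Trem2 (chr17:48346401-48352276), the lipid receptor, differed from these in being present on chow. It stood at 73.7 CPM in KCs of the NCD library (992 UMIs) and at 179 CPM in KCs of the pool (631 UMIs), a log2 ratio of 1.28 (1.14 to 1.43). This lies near the 2-fold line, and it fell to 0.95 once KCs of any gene number were counted and to 0.94 among KCs with a Timd4 UMI. Itgax (chr7:128129526-128150657), the integrin chain CD11c, stood at 11.2 and 38.4 CPM, a log2 ratio of 1.78 (1.43 to 2.12).

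Of the secreted proteins, Mmp12 (chr9:7344397-7360461), the macrophage elastase, came closest to Gpnmb. It stood at 2.23 CPM in KCs of the NCD library against 97.0 CPM in KCs of the pool, a log2 ratio of 5.40 (4.90 to 6.03), rank 3 of all genes measured. Lgals3 (chr14:47373860-47386167), which encodes the sugar-binding galectin-3, stood at 868 and 1216 CPM, a log2 ratio of 0.49. Spp1 (chr5:104435111-104441053), which encodes osteopontin, had 11 UMIs in KCs of the NCD library against 8 in KCs of the pool, and no ratio was made. Thus the 3 secreted proteins followed 3 courses in KCs, from near-absent to detected, a small difference, and no signal in either library.

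Of the lipid genes, Lpl (chr8:68880555-68906932), the secreted lipase that frees fatty acids from lipoprotein triglycerides, had 29292 UMIs in KCs of the NCD library against 7790 in KCs of the pool. At 2177 and 2216 CPM its log2 ratio was 0.03 (-0.01 to 0.06), so the interval leaves no room for a 2-fold difference between these libraries by counting error. Fabp5 (chr3:10012585-10016610), a fatty acid carrier of the cytosol, stood at 6.84 and 21.1 CPM, a log2 ratio of 1.63 (1.16 to 2.08). The median over the 9 genes was 1.78, against -0.02 for all genes measured and 1.40 for the 16 dissociation genes. Since Gpnmb, Cd9, Cd63 and Mmp12 passed the minimum through the pool, this median is no support for a shift of the list either. In the same comparison the summed hepatocyte markers in KCs went the other way, from 1414 to 877 CPM.

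**Figure D1:**
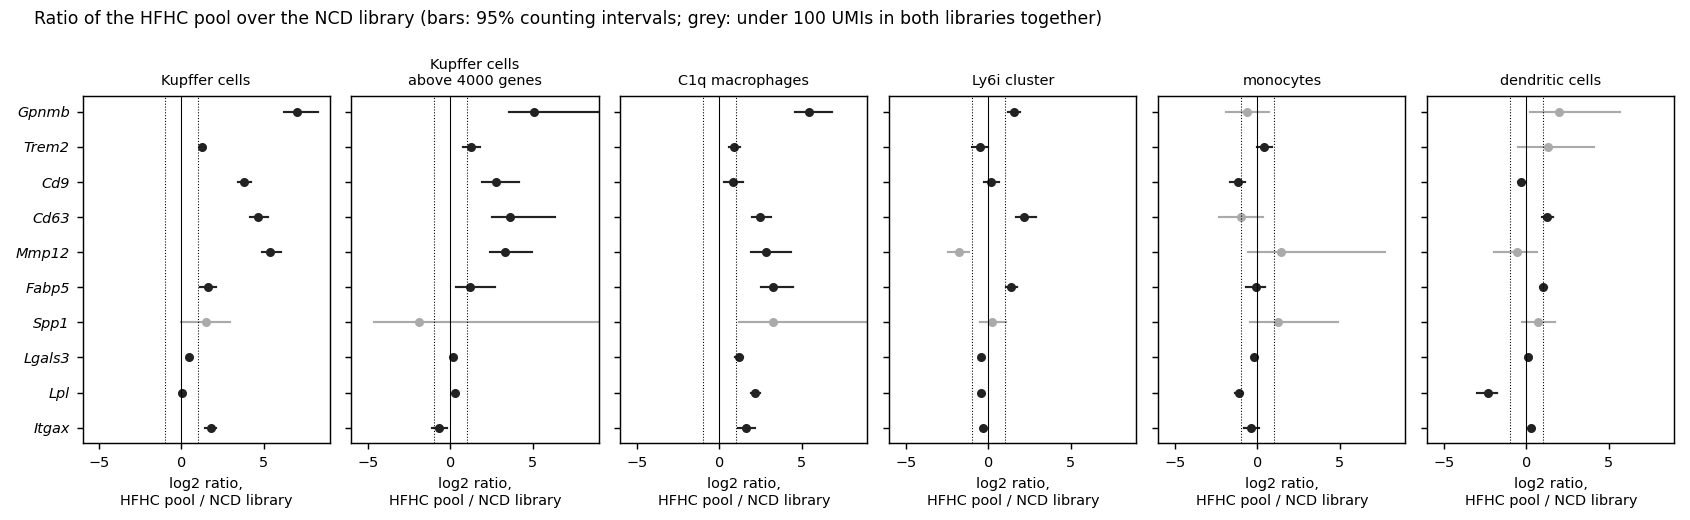
Log2 ratio of the pool to the NCD library for each of the 10 genes in 6 classes of myeloid cells, with 95% counting intervals as bars, grey where a gene had under 100 UMIs in both libraries together, and dotted lines at 2-fold. Gpnmb reaches 7.02 in Kupffer cells and 5.44 in C1q macrophages, while in monocytes no gene with enough UMIs lies above the upper line.

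In KCs with over 4000 genes, Gpnmb, Cd63, Mmp12 and Cd9 had the highest ratios of the members. The interval of Cd9 (1.95 to 4.14) overlapped that of Fabp5 (0.35 to 2.73), so this order is not settled. In these deep cells 6 of the 9 genes with enough UMIs were at least 2-fold higher in the pool, where 6.40% of 8714 genes were. All 6 passed the minimum of UMIs through the pool alone, where they are high, so neither their number nor their order is support for a shift. The NCD library has 36 such cells and few UMIs of most members: Gpnmb had 1 UMI there (1.59 CPM) and 1540 in the pool (107 CPM), a log2 ratio of 5.07 with an interval of 3.59 to 11.4. Mmp12 stood at 9.55 and 111 CPM, Cd63 at 4.77 and 79.8 CPM, and Cd9 at 12.7 and 96.9 CPM, with 6, 3 and 8 UMIs in the 36 cells. Itgax was lower in the pool here, at 78.0 CPM in the 36 cells and 48.9 CPM in the pool, a log2 ratio of -0.70 (-1.09 to -0.22). Its 49 UMIs in the 36 cells lay in 9 of them, with 27 in a single cell, so this ratio rests largely on that cell.

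Within a library, where diet and capture do not enter, the deep KCs differed little from the other KCs in these genes. Genotype may still enter within the pool, since it is known for no cell. In the pool, log2 ratios of deep over other KCs ran from -0.45 (Trem2) to 0.47 (Fabp5) over the 9 genes with enough UMIs. None was 2-fold higher, against 1.79% of 9049 genes. In the NCD library only 4 members had enough UMIs, and Itgax alone passed 2-fold, at 11.2 CPM in other KCs and 78.0 CPM in the deep ones (log2 2.82, 2.30 to 3.27), against 3.3% of 8459 genes. Of its 49 UMIs in the deep KCs, 27 lay in a single cell, so this ratio too rests largely on that cell.

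In C1q macrophages of the NCD library the members together stood at 1581 CPM, below the 3148 CPM of KCs, since Lgals3 and Lpl were lower, while in the pool they stood at 6329 CPM against 4008 CPM in KCs. Of 9 genes with enough UMIs, 7 were at least 2-fold higher in the pool, where 5.46% of 2108 genes were, and only Lgals3 and Lpl had 100 UMIs in the NCD library alone. The others passed the minimum mainly through the pool, where they are high, so their number is no support for a shift. Gpnmb stood at 25.1 CPM (8 UMIs in 5 of 93 cells) in the NCD library against 1220.2 CPM (1119 UMIs in 67 of 106 cells) in the pool, a log2 ratio of 5.44 (4.62 to 6.82), again the highest of all genes measured. Among the lipid genes Fabp5 stood at 31.3 and 336 CPM (log2 3.29) and Lpl at 410.2 and 1858 CPM (log2 2.17, 1.92 to 2.45). In the pool, the 11 of 106 cells with the most UMIs of a gene held 242 of 308 for Fabp5 and 922 of 1704 for Lpl. Both levels thus rest largely on few cells. Lpl thus differed more than 4-fold in this cluster, whereas it was level in KCs, but with classes set by each cell's marker UMIs its log2 ratio in C1q macrophages was 0.13.

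Mmp12 stood at 21.9 and 177 CPM in C1q macrophages (log2 2.83), Cd63 at 81.4 and 471 CPM (2.48), Itgax at 113 and 353 CPM (1.61) and Lgals3 at 526 and 1199 CPM (1.18, or 0.60 with classes set by marker UMIs). Of the 162 Mmp12 UMIs of the pool, 154 lay in the 11 highest of 106 cells. Trem2 was high on chow already, at 276 CPM (88 UMIs) against 511 CPM in the pool, a log2 ratio of 0.88 (0.56 to 1.24). Cd9 stood at 97.1 and 174 CPM, a log2 ratio of 0.81. Both lie under 2-fold, and above it in some of the other settings tried (up to 1.89 and 3.12). With classes set by marker UMIs, which make a far larger class, the ratios of Gpnmb (7.58), Cd63 (5.21), Mmp12 (5.19) and Itgax (3.01) were also higher, and that of Fabp5 was 3.41. Spp1 had 0 UMIs in 93 cells of the NCD library against 26 UMIs in 9 of 106 cells of the pool, with 14 of them in 1 cell. The median over the 9 genes was 2.17, against -0.04 for all genes measured and 1.29 for the dissociation genes. Most of the 9 passed the minimum mainly through the pool, so this median is no support for a shift either. A further 37 C1q macrophages of the pool had over 4000 genes, with Gpnmb at 2228 CPM and Lpl at 3957 CPM, and the NCD library had none to compare.

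**Figure D2:**
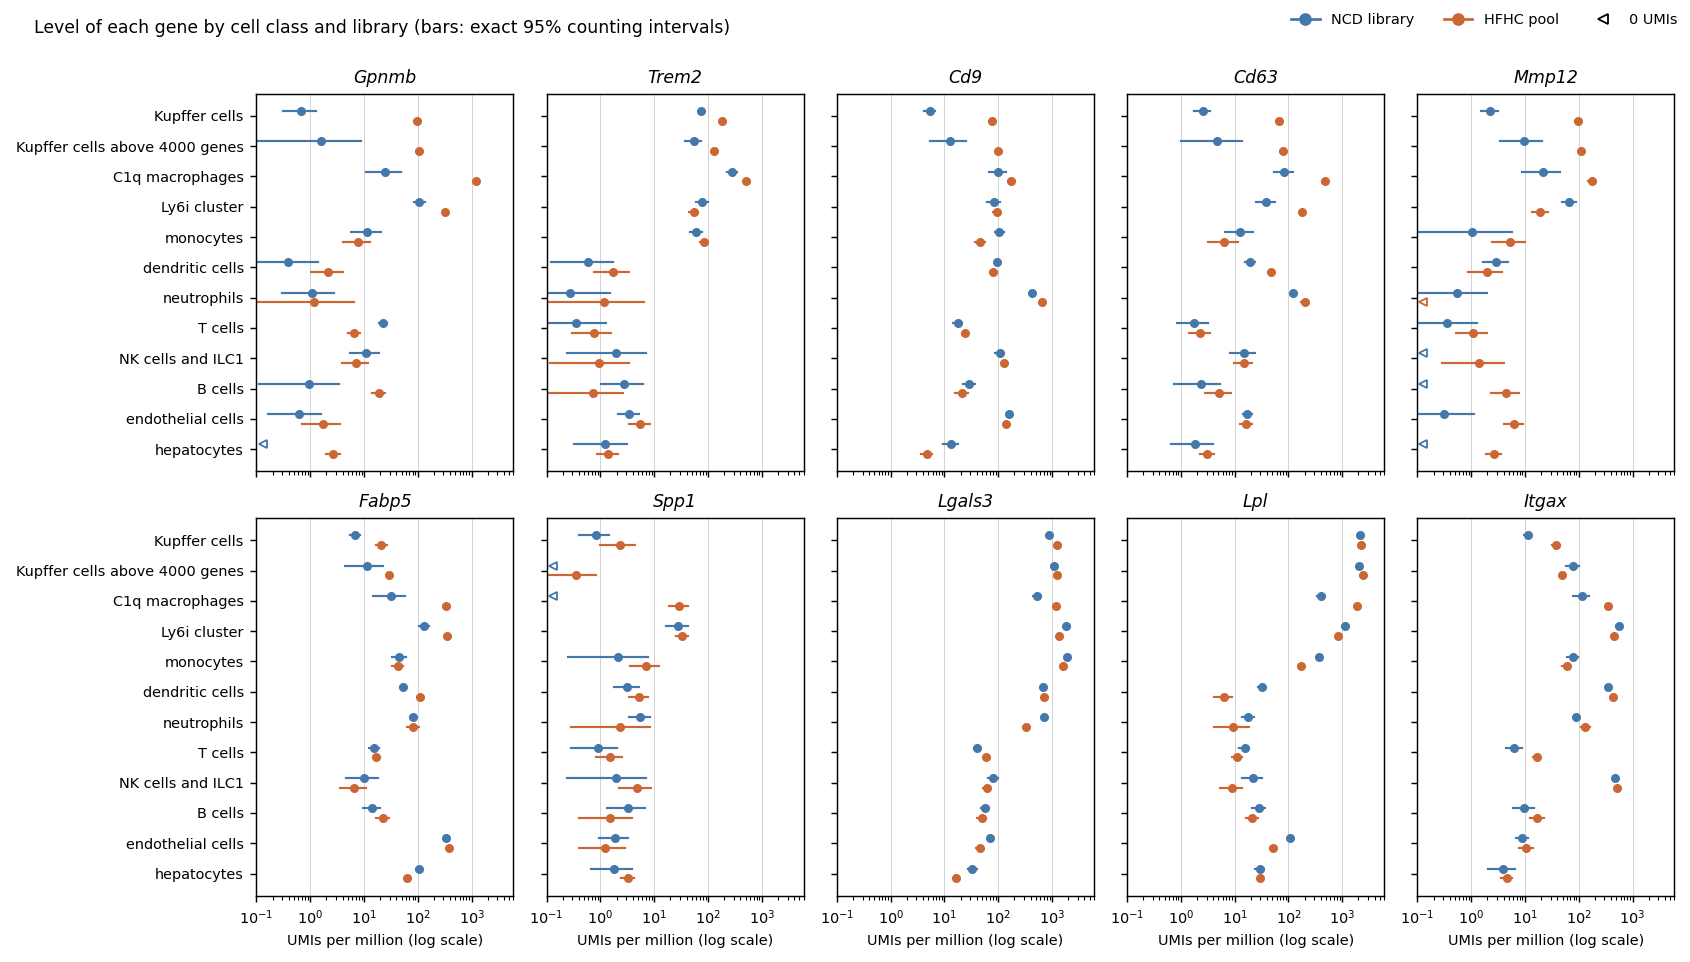
Level of each of the 10 genes, in CPM on a log axis, by cell class and library, with exact 95% counting intervals as bars and open triangles for 0 UMIs. Gpnmb is at 1220.2 CPM in C1q macrophages of the pool and under 30 CPM in all classes of the NCD library drawn but the Ly6i cluster. Of the classes drawn, which leave out cholangiocytes, Spp1 is highest in the Ly6i cluster of both libraries. In the pool its interval there overlaps that in C1q macrophages.

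In the Ly6i cluster, 3 of the 8 genes with enough UMIs were at least 2-fold higher in the pool, where 4.58% of 4037 genes were. All 3 passed the minimum of UMIs through the pool alone, and the 3 members with 100 UMIs in the NCD library alone (Lgals3, Lpl and Itgax) were lower in the pool, each by less than 2-fold. Cd63 stood at 37.6 and 179 CPM (log2 2.20), Gpnmb at 107 and 317 CPM (1.55) and Fabp5 at 133 and 350.0 CPM (1.38). The other 5 lay between -0.52 (Trem2) and 0.17 (Cd9). On chow this cluster held 23.7% of all Gpnmb UMIs of the library, more than KCs and C1q macrophages together. These 74 UMIs lay in 11 of 154 cells, with 25 in a single cell. Of its 92 Fabp5 UMIs on chow, 35 lay in a single cell. In the pool, the 30 of 295 cells with the most UMIs of a gene held 631 of 642 for Gpnmb. For Cd63 they held 336 of 362, and for Fabp5 626 of 708. The levels of these genes in the pool thus rest on a minority of the cluster's cells.

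Monocytes differed from this. No member of the 6 with enough UMIs was at least 2-fold higher in the pool, where 3.83% of 4074 genes were. Cd9 was lower there, at 105 and 46.1 CPM (log2 -1.19), and so was Lpl, at 375 and 173 CPM (log2 -1.11). Trem2 stood at 61.0 and 83.4 CPM (log2 0.44, 0.00 to 0.92), and Lgals3 was high in both libraries, at 1890 and 1618 CPM. The monocyte clusters differed in Trem2, at 71.8 and 77.2 CPM in the one led by Fn1. In the one led by Ace it stood at 26.6 CPM (6 UMIs) and 110 CPM (36 UMIs). Gpnmb had 11 and 13 UMIs in all monocytes. In DCs, Cd63 (19.3 and 47.5 CPM, log2 1.29) and Fabp5 (52.4 and 108 CPM, log2 1.04) were 2 of 6 genes at least 2-fold higher, where 3.35% of 8169 genes were. Both class values rest on the small cluster of mature DCs, 32 and 35 of the 1209 and 623 DCs, which held 84 of 98 and 209 of 219 Cd63 UMIs and 161 of 266 and 343 of 497 Fabp5 UMIs. Within that cluster both genes differed by less than 2-fold, Cd63 at 604 and 978 CPM and Fabp5 at 1158 and 1604 CPM. Lpl was lower in DCs of the pool, at 31.7 and 6.28 CPM (log2 -2.29), and Trem2 and Gpnmb had at most 10 UMIs in either library.

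Several members are not specific to macrophages, as their levels in other cells show. Spp1 was a gene of cholangiocytes, the cells that line bile ducts, at 5689 CPM in 82 cells of the NCD library against 7994 CPM in 27 cells of the pool. These few cells held 85.4% and 54.6% of all Spp1 UMIs of their libraries. Itgax stood at 473 and 516 CPM in NK cells and ILC1 and at 349 and 434 CPM in DCs, above its level in C1q macrophages of the same library. Cd9 stood at 429 and 641 CPM in neutrophils, above every macrophage class, and Fabp5 at 337 and 374 CPM in endothelial cells. In the pool, Fabp5 in endothelial cells, in the Ly6i cluster and in C1q macrophages did not differ beyond their counting intervals.

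Trem2 was highest in C1q macrophages of both libraries, and in the NCD library its levels in the Ly6i cluster (78.1 CPM), KCs (73.7 CPM) and monocytes (61.0 CPM) followed each other with intervals that overlap from one to the next. In the NCD library Lpl was highest in KCs, while in the pool it was higher in the 37 deep C1q macrophages (3957 CPM) than in deep KCs (2448 CPM) and KCs (2216 CPM). KCs and deep KCs held 75.7% and 3.26% of the Lpl UMIs in the NCD library against 14.8% and 66.8% in the pool. B cells, read as a class that should lack most of these genes, had Trem2 at 2.80 and 0.741 CPM, Cd63 at 2.33 and 5.19 CPM and Gpnmb at 0.934 and 18.9 CPM, the last resting on 1 cell with 41 of the 51 UMIs. Other members were less low there, with Lgals3 at 57.0 and 48.9 CPM, Cd9 at 28.5 and 21.1 CPM, Lpl at 28.0 and 21.1 CPM, Fabp5 at 14.0 and 22.2 CPM and Itgax at 9.80 and 17.1 CPM. Gpnmb, Cd9, Fabp5 and Spp1 in KCs of the NCD library, and Fabp5 in KCs of the pool, thus stood no higher than in B cells of the same library.

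To count the genes found per cell, cells with at least 2000 UMIs were thinned at random to 2000 and the members with a UMI were counted. Shallower cells dropped out, so 2147 of 2718 and 328 of 383 KCs, 63 of 93 and 105 of 106 C1q macrophages, and 199 of 1426 and 715 of 851 B cells were read, in the order NCD library and pool. At least 3 of the 10 genes were found in 257 of 2147 KCs of the NCD library (12.0%, exact binomial interval 10.6 to 13.4) and in 138 of 328 KCs of the pool (42.1%, 36.7 to 47.6). Over 10 further draws these shares ran from 10.5 to 11.8% and from 35.1 to 42.4%. At least 5 genes were found in 0 of the 2147 and in 24 of the 328 (7.32%). Deep KCs gave 16.7% (6 of 36) and 37.4% (223 of 596) for at least 3 genes. KCs with several members were thus commoner in the pool than in the NCD library at the same depth.

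Among the myeloid classes with up to 4000 genes, C1q macrophages had the highest share of cells with at least 3 genes in the pool, while in the NCD library they and the Ly6i cluster were not told apart, with means over the 10 further draws of 28.4% and 30.1%. At least 3 genes were found in 21 of 63 cells of the NCD library (33.3%, 22.0 to 46.3) and in 78 of 105 cells of the pool (74.3%, 64.8 to 82.3), and at least 5 in 6.35% and 30.5%. Monocytes stood at 12.4% and 7.07%, DCs at 8.89% and 10.1%, and the Ly6i cluster at 30.8% and 29.8%. Cholangiocytes, which are no macrophages, reached 53.4% (39 of 73 cells) in the NCD library, above C1q macrophages there, and 38.5% (10 of 26) in the pool. Of B cells it was 0 of 199 in the NCD library, which allows up to 1.84%, and 0.280% of 715 in the pool. Over all cells of the class, those dropped included, the median depth was 1334 and 2643 UMIs in B cells against 4507 and 10091 in KCs.

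**Figure D3:**
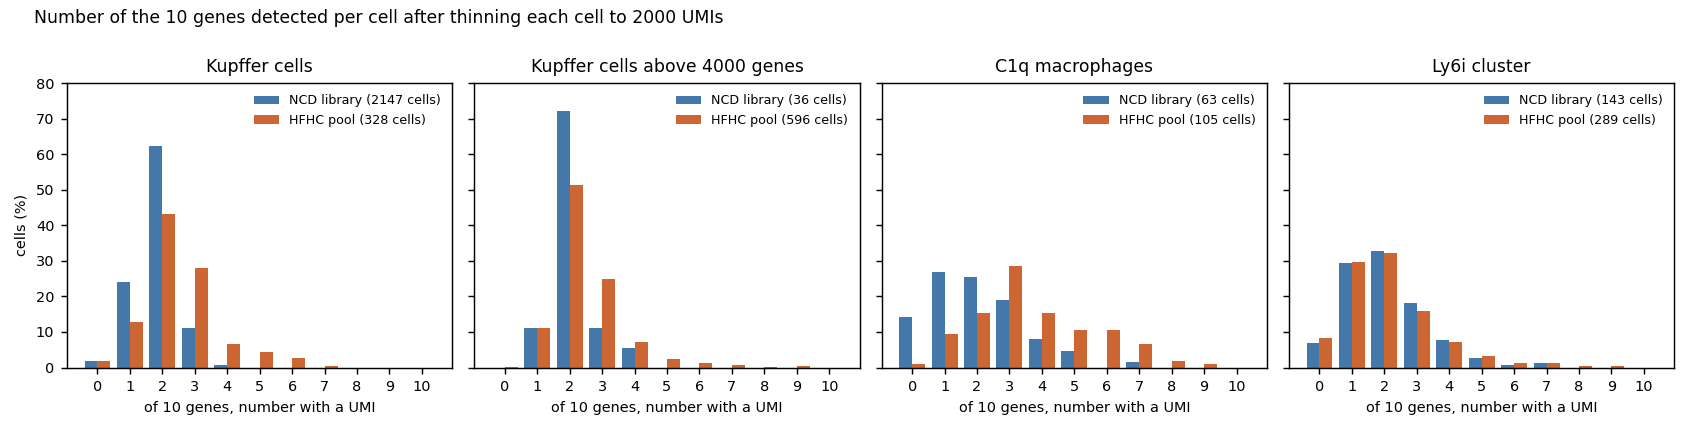
Share of cells, in percent, by the number of the 10 genes with a UMI after thinning to 2000 UMIs, for each library, among cells that had at least 2000. In Kupffer cells of the pool the bars reach past 5 genes, where the NCD library has no cell, and in C1q macrophages of the pool the bars lie farthest to the right.

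Lgals3 and Lpl are found in most KCs of both libraries and so carry much of the count. After thinning, Lpl was found in 91.5% of KCs of the NCD library against 93.0% of the pool, and Lgals3 in 76.2% and 84.1%. With these 2 genes left out, at least 1 of the other 8 was found in 16.4% of KCs of the NCD library against 45.1% of the pool, and at least 2 in 1.02% (22 cells) and 15.5% (51 cells). In C1q macrophages at least 2 of the 8 were found in 27.0% and 64.8%. The difference between the libraries therefore remained without the abundant pair. Such shares rise with the level of each single gene, which was higher in the pool for most members. Here and in the counts above they do not show on their own that the genes go together in a cell.

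Gpnmb UMIs lay in few KCs. In the pool, 65 of 383 KCs had a Gpnmb UMI, 9 had 10 or more, and the 39 KCs with the most held 90.5% of the UMIs, with 65 in a single cell. Mmp12 was as uneven, with 98.8% of its UMIs in the 39 highest KCs, while Lgals3 and Lpl were spread, with 29.4% and 31.0%. In C1q macrophages of the pool, 67 of 106 cells had a Gpnmb UMI and the 11 highest held 69.6%. So the mean level of 96.2 CPM in KCs of the pool rests on a minority of cells, and largely on a few of them.

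The 65 KCs of the pool with a Gpnmb UMI were set against the 318 without, at median depths of 11020 and 9703 UMIs, and the other genes were read after thinning to 2000 UMIs (60 and 268 cells). Trem2 was found in 56.7% (43.2 to 69.4) of the Gpnmb-bearing KCs and in 17.9% (13.5 to 23.0) of the others. Cd63 was found in 31.7% against 4.48%, Itgax in 21.7% against 5.22%, and Mmp12 in 18.3% against 4.85%. Their intervals do not overlap, and neither do the ranges over the 10 further draws. Cd9 was found in 12 of 60 cells (10.8 to 32.3%) against 10.4% (7.06 to 14.7), with intervals that overlap, and Lgals3 (88.3% against 83.2%) and Lpl (93.3% against 92.9%) hardly differed. On average 3.40 other members were found per Gpnmb-bearing KC and 2.21 per KC without.

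The markers of KC identity also moved with Gpnmb. Timd4, a receptor of long-lived resident KCs, was found in 38.3% (26.1 to 51.8) of the Gpnmb-bearing KCs and in 73.5% (67.8 to 78.7) of the others. Clec4f was found in 71.7% against 97.0%, and Vsig4, a complement receptor of KCs, in 61.7% against 91.8%. Genes of monocyte-derived cells went the other way, Cx3cr1 in 18.3% against 3.73% and Ccr2 in 13.3% against 2.99%. The B cell marker Cd79a was found in 0 of 60 and 3 of 268 cells, and the hepatocyte gene Alb in 35.0% and 31.7%. Over all KCs, Cx3cr1 stood at 10.6 CPM in the NCD library against 66.3 CPM in the pool, and Ccr2 at 10.3 and 54.9 CPM, so these markers were higher in the KC class of the pool beside the members, and their part in the ratios was not tested.

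Gpnmb was nevertheless present in KCs that carry Timd4. Among KCs with a Timd4 UMI (2273 and 302 cells), the log2 ratio of Gpnmb was 6.03, and the median over the members 1.30 in place of 1.78. In deep KCs of the pool, Timd4 was found in 75.0% (66.4 to 82.3) of the 124 Gpnmb-bearing cells and in 79.9% (76.0 to 83.4) of the other 472, with Clec4f in 93.5% and 98.3% and Cx3cr1 in 4.84% and 1.69%. Cd63 (29.8% against 5.93%), Mmp12 (16.9% against 3.39%), Itgax (16.1% against 3.39%) and Trem2 (30.6% against 13.8%) again went with Gpnmb there. Cd63, Mmp12, Itgax and Trem2 therefore went with Gpnmb in KCs both with lower and with nearly level shares of the KC markers.

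**Figure D4:**
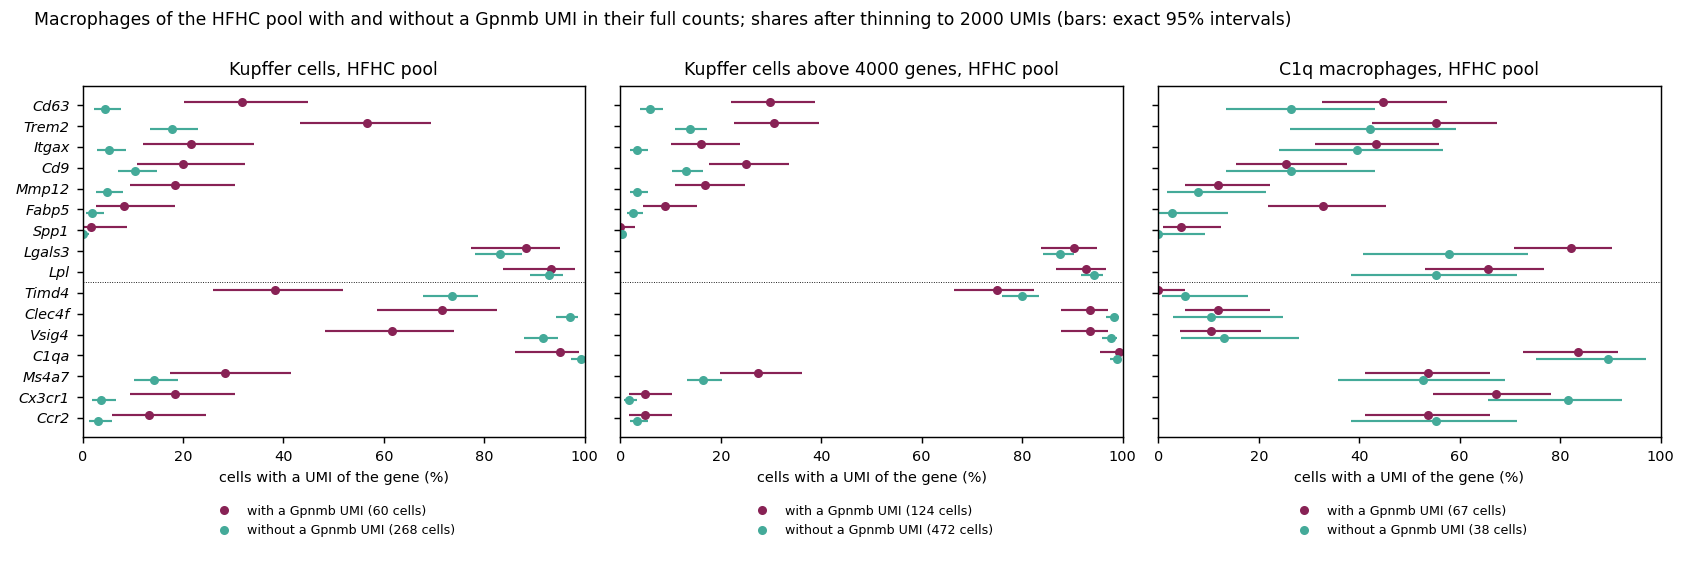
Share of macrophages of the HFHC pool, in percent, in which each gene was found after thinning to 2000 UMIs, for cells with and without a Gpnmb UMI in their full counts, with exact 95% intervals as bars and the other members above the dotted line. In Kupffer cells Timd4 falls from 73.5% to 38.3% with Gpnmb, while in Kupffer cells above 4000 genes it stands at 79.9% and 75.0%.

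Seen from Timd4, the same cells split the same way, which for Gpnmb restates the split above and is no further support. KCs of the pool without a Timd4 UMI (81 cells, 59 after thinning) had Gpnmb in 22.0% (12.3 to 34.7), against 4.46% (2.33 to 7.66) of those with one, Trem2 in 42.4% against 21.2%, and Mmp12 in 18.6% against 4.83%. Their median depth was lower, at 5206 against 10686 UMIs. In the NCD library Gpnmb was found in 0 of 142 KCs without Timd4 and 4 of 2005 with it, too few to compare, and Trem2 in 17.6% against 11.8%. Among the clusters of KCs of the pool, Gpnmb stood at 79.6 CPM in the one led by C6 and 294 CPM in the one led by Marco, and in the NCD library at 0.755 CPM (9 UMIs) and 0.

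Some pairs of members were found together in KCs of the pool more often than their single shares multiply to, and others were not. Gpnmb and Cd63 shared 11 of 328 thinned KCs where 2.36 would be had from independent shares. Gpnmb and Mmp12 shared 8 against 1.83, and Gpnmb and Itgax 9 against 2.06. These pairs were picked because the genes went with Gpnmb in the split of the same cells above. Their excess restates that split and is no further support. The pair of Gpnmb and Trem2, which also went together in the split, is not given here. Gpnmb and Cd9 shared 5 against 3.05, Gpnmb and Lgals3 22 against 21.0, Gpnmb and Lpl 21 against 23.2, and Trem2 and Cd9 10 against 10. In deep KCs of the pool Gpnmb and Cd63 shared 21 of 596 cells against 4.14. In C1q macrophages of the pool Gpnmb and Cd63 shared 24 of 105 cells against 18.3, Gpnmb and Mmp12 7 against 5.03, and Gpnmb and Itgax 22 against 20.1, ratios of 1.31, 1.39 and 1.09 where those of KCs were 4.66, 4.37 and 4.37. A gene found in many cells leaves less room for such a ratio. In full counts Gpnmb was in 67 of 106 C1q macrophages and 65 of 383 KCs of the pool, so the ratios of these classes cannot be compared.

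Genes that act with the members were read from 5 hand-written lists of 52 measured genes. In KCs, 7 of 48 with enough UMIs were at least 2-fold higher in the pool and 2 lower, where 3.59% and 3.83% of all 8881 genes were. The lists were chosen with earlier results of these data known. These counts, and those of the other classes below, are therefore no support for a shift of the lists. Ctsd, a lysosomal protease, stood at 187 and 1079 CPM (log2 2.53), Hexa, a lysosomal hexosaminidase, at 189 and 585 CPM (1.63), and Plin2, a coat protein of lipid droplets, at 109 and 255 CPM (1.23). Gdf15, a secreted stress factor, stood at 14.9 and 93.0 CPM (2.64), and among regulators Atf3 (2.81), Bhlhe40 (2.23) and Tfeb (1.61) were higher and Rxra (-1.29) and Maf (-1.16) lower. None of the 5 genes through which Trem2 signals passed 2-fold either way, with the adaptor Tyrobp at 2090.3 and 2209 CPM.

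In C1q macrophages, 11 of 42 were at least 2-fold higher and 1 lower, where 5.46% and 4.27% of all 2108 genes were. All 11 had under 100 UMIs in the NCD library and passed the minimum mainly through the pool, where they are high, so their number is no support for a shift of the lists. Lipid handling took 4 of these, namely Plin2 (log2 1.94), the exporter of cholesterol Abca1 (1.29), the fatty acid receptor Cd36 (1.28) and the cholesterol ester hydrolase Nceh1 (1.22). Ctsd (93.9 and 775 CPM) and Hexa (log2 1.51) stood for lysosomes, Gdf15 (3.88), Lgals1 (2.26), Vat1 (1.65) and Igf1 (1.48) for surface and secreted genes, and Atf3 (2.54) for regulators, with Maf lower (-1.18). Again none of the Trem2 signalling genes with enough UMIs passed 2-fold.

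Several of these partner genes also passed 2-fold in monocytes and DCs. In monocytes 3 of 41 were higher and 5 lower (3.83% and 2.80% of 4074 genes), and in DCs 5 of 43 were higher and 6 lower (3.35% and 3.02% of 8169 genes). In the order monocytes and DCs, the log2 ratios were 2.94 and 2.77 for Atf3, 1.62 and 1.43 for Hexa, 1.01 and 1.46 for Ctsd, -1.19 and -2.67 for Maf and -1.22 and -1.46 for Rxra. The differences of these 5 genes in KCs were therefore not confined to macrophages. Bhlhe40 (1.64) and Tfeb (1.05) were also at least 2-fold higher in DCs of the pool, and under 2-fold in monocytes (0.72 and 0.81).

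Over 27 groups of a class in a library, the genes whose levels went most like the summed members were Rtn4 (Pearson's r 0.91), Atp6v1a (0.86), Anxa3 (0.86), Sirpa (0.85) and Sppl2a (0.85), among 10943 genes. The points share libraries and depths, and the sum follows its most abundant members, with Lgals3 itself at 0.84 and Gpnmb at 0.48. Gpnmb went most like Mmp12 (0.86), and Cd63 like Cd9 (0.81).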

How the data were processed

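The authors made the counts, UMIs of every gene in every cell, with BD Rhapsody software 1.10.1 on GRCm38 with GENCODE annotation, per the file headers, and deposited the counts for 2 libraries, neither filtered nor normalized. Seurat and GRCm38 are named in the submitters' processing notes, and the aligner's settings are not given in the sources used here. The sample-tag library was not analysed here.

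Cells with 200 to 4000 genes and at most 25% mitochondrial UMIs were normalized with SCTransform (sctransform 0.4.2, 4000 variable genes without the 10 members), integrated by reciprocal PCA in Seurat 5.3.0 (R 4.3.3, SeuratObject 5.2.0, Matrix 1.6.5) with 30 components, and clustered with 20 neighbours at a resolution of 0.8, and 0.5 for myeloid cells, with a seed of 42. Clusters were named from marker lists where the best type scored at least 1 on the log2 scale with 3 markers detected in 10% of cells. A cluster stayed unnamed, and out, where another type had more markers among its 10 leading genes, or where no marker was among these and its median UMIs lay under the library's median divided by 3, as in 2 clusters led by hepatocyte genes. Clusters whose best type was myeloid at 0.5 or more, named or not, were clustered again, and those in which a type outside the myeloid set scored 2 or more were called mixed and left out, the largest with 352 and 125 cells with hepatocyte and KC markers. These thresholds were set after the clusters were seen. Cells with over 4000 genes took the class whose profile in their library they correlated with best.

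The UMIs of a class were added up and given as CPM with exact Poisson 95% intervals. Log2 ratios have 1 UMI added to both sums, need 100 UMIs or more over the 2 libraries, and carry intervals from the exact binomial interval of the split of UMIs. Shares of cells have exact binomial intervals. A gene counted as higher at a log2 ratio of 1 or more. With 1 library per diet there was no test, cells not being replicates. Likeness is Pearson's correlation of log2(CPM + 10) over groups of at least 50 cells, among genes with at least 500 UMIs. The ratio and the thinning were tested on simulated data.

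The genes named are the 10 members, the genes of the 5 partner lists past 2-fold in KCs or C1q macrophages (at most 5 a list), the 5 genes most like the summed members, and markers that define a class. Genes outside this rule, among them Alb, Cd79a, Tyrobp and the genes most like Gpnmb and Cd63, were picked with their values in view. The members and lists were chosen with earlier results of these data known. The alternatives were 10% mitochondrial UMIs, no upper limit on genes, no Scrublet doublets (scanpy 1.11.5, scikit-image 0.26.0), members among the clustering genes, resolutions of 1.0 and 0.3, classes from each cell's marker UMIs, a minimum of 20 UMIs, scaling by the median of gene ratios, and thinning to 1000 UMIs or none. KCs with a Clec4f or a Timd4 UMI only, and cells without an index found in both tables, were added after seeing the data. Python 3.11.15, numpy 2.4.6, scipy 1.17.1 and pandas 2.3.3 were used.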

Additional observations from a re-analysis of the deposited data

Results flagged for a closer look

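Some members differed between the libraries in opposite directions in different classes, each at least 2-fold and each in a single pair of libraries, and the differences between classes were not tested. Gpnmb was higher in the pool in KCs (log2 ratio 7.02), C1q macrophages (5.44) and the Ly6i cluster (1.55), and lower in T cells (-1.79). Cd9 was higher in KCs (3.82) and lower in monocytes (-1.19) and hepatocytes (-1.49). Lgals3 was higher in C1q macrophages (1.18) and lower in neutrophils (-1.11) and hepatocytes (-1.04). Lpl was higher in C1q macrophages (2.17) and lower in monocytes (-1.11), DCs (-2.29) and endothelial cells (-1.02).

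In the classes where Lpl was lower in the pool, the summed KC markers were lower too. These stood at 327 CPM in DCs of the NCD library and 64.1 CPM in DCs of the pool, at 636 and 67.7 CPM in monocytes, and at 1098 and 343 CPM in endothelial cells, and their part in the lower Lpl was not tested. They were also lower in classes where Lpl was not 2-fold lower, at 299 and 103 CPM in hepatocytes (Lpl at 29.1 and 29.5 CPM) and at 340 and 90.4 CPM in B cells (Lpl at 28.0 and 21.1 CPM). In C1q macrophages, where Lpl was higher in the pool, the same markers stood at 1735 and 1177 CPM.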

How the results depend on the processing

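No paired analysis was possible because each diet has 1 library. Of 110 recomputed counts, medians and shares, 91 stayed close to the reported value and none turned direction. Of 167 recomputed log2 ratios of single members in KCs and C1q macrophages, 143 stayed close, and none turned direction from 2-fold or more.

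Classes set by a cell's marker UMIs moved several values. The C1q macrophages so defined were 1901 and 298 cells, and the count of members at least 2-fold higher fell to 3 of 5 in KCs (median 1.05) and rose to 1 in monocytes, with a median of 3.12 in C1q macrophages. At least 3 members were then found in 13.6% and 58.3% of C1q macrophages and in 36.3% of KCs of the pool. With no upper limit on genes the C1q median was 2.78 and DCs had 1 member higher. Resolutions of 1.0 and 0.3 gave a KC median of 2.81 and no class of C1q macrophages, hence no value for it.

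KCs with a Timd4 UMI gave a median of 1.30 and at least 3 members in 35.7% of cells of the pool, and KCs with a Clec4f UMI and cells without an index found in both tables moved none of these values. Thinning to 1000 UMIs gave 3.56% and 22.4% for KCs and 10.5% and 44.3% for C1q macrophages, in the order NCD library and pool. With no thinning, KCs gave 25% and 69.7% and C1q macrophages of the pool 92.5%. The cause of these moves was not tested, other than that deeper counts show more genes per cell.

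Lpl in C1q macrophages fell to 0.13 and Lgals3 to 0.60 with classes from marker UMIs, and Cd9 and Trem2 there crossed 2-fold in some settings (up to 3.12 and 1.89). Depth limits the 36 deep KCs of the NCD library and Spp1, which had under 30 UMIs in every KC and C1q sum with up to 4000 genes.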

Other observations

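In the NCD library T cells held more Gpnmb UMIs than any other class, 129 of 312 (41.3%), spread over 113 of 2882 cells with at most 3 in a cell. In the pool T cells held 61 of 5810 (1.05%), in 51 of 2576 cells. The level was 22.9 CPM in the NCD library against 6.54 CPM in the pool. The pattern is unlike that of KCs of the pool, where single cells held up to 65.

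The cluster of mature DCs led by Fscn1, of 32 cells in the NCD library against 35 in the pool, was high in 2 members in both libraries. Cd63, the lysosomal tetraspanin, stood at 604 and 978 CPM there, and Fabp5, the fatty acid carrier, at 1158 and 1604 CPM, above their levels in C1q macrophages of the same library. Gpnmb in this cluster was at 0 and 9.35 CPM. Basophils were likewise high in Cd63, at 831 CPM in 73 cells and 912 CPM in 17 cells, with Gpnmb, Trem2 and Spp1 at 0 in both libraries.

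Among clusters left out as mixed, the one led by Igfbp7, with endothelial and KC markers, had 26 Gpnmb UMIs in 54 cells of the NCD library (83.0 CPM).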
